A study of Mus musculus with 4 samples.

Results

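H3K9me2 regions in gene deserts are the called regions that lie far from any gene in mouse neural stem cells. A region was a member when its centre lay on chromosomes 1 to 19, more than 500 kb from the start of every protein-coding transcript and in no annotated gene of GENCODE M21. There were 3656 such regions among 36171 in the deposited list and 35649 on these chromosomes. Another 15904 were intergenic but nearer to a start, and 16089 lay in annotated genes. The labels give the cells as neural stem cells of stage E12.5, genotype WT and strain C57BL/6J, and the medium had EGF at 20 ng/ml and FGF at 10 ng/ml. Expression was not measured, so the cell type could not be checked against its markers. Chromatin was immunoprecipitated with the H3K9me2 antibody Abcam ab1220 in 1 sample, with 1 input, and the demethylase PHF2 was mapped in 1 further sample (Cell Signaling antibody D45A2), also with 1 input. No treatment or mutant was compared, the region list has no values other than position and length, and the read depth is unknown. With 1 sample there is no spread between cultures, so no test between conditions was possible, and every interval below covers counting error only.

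H3K9me2 is histone H3 dimethylated at lysine 9, a mark written mainly by the methyltransferases G9a and GLP and known from silent chromatin, where it often forms broad domains at the nuclear periphery. Gene deserts are long stretches without protein-coding genes. They are usually rich in A and T, replicate late and often border genes for neural cell adhesion or developmental transcription factors, some of whose distant enhancers lie inside them. Here a desert is a continuous stretch more than 500 kb from every coding start, and its border genes are the coding genes whose starts bound it.

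A total of 306 deserts held 217.3 Mb of DNA outside annotated genes and assembly gaps, 17.6% of the intergenic DNA of these chromosomes, and the same DNA held 18.7% of the intergenic regions. The rule counts only coding starts, so 4 deserts, with 15 regions in 2.11 Mb, contained segments of immunoglobulin or T cell receptor genes, which have annotation types of their own. The nearest members inside the limit lay 500.1, 500.4 and 500.5 kb from a start. The nearest intergenic regions outside it lay at 499.9, 499.6 and 499.5 kb. The median member lay 789 kb from a start, 1133 members lay farther than 1 Mb and 63 farther than 2 Mb.

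The 5 longest members show what the list calls in deserts when it calls most. They are printed from the plus strand of mm10, with capitals for bases outside the repeats masked in the reference and lower case for masked repeats. The first sequence is shortened to its first 300 bases.
Tbl1xr1 / Naaladl2 desert, chr3:22861162-22861461: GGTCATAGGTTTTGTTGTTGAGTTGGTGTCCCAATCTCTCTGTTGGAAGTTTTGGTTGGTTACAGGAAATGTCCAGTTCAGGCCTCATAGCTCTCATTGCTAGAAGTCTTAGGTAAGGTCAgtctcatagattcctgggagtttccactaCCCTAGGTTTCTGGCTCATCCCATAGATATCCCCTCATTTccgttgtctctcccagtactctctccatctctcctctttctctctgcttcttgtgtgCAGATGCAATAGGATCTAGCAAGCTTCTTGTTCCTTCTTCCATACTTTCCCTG
Stim2 / Pcdh7 desert, chr5:56222430-56222725: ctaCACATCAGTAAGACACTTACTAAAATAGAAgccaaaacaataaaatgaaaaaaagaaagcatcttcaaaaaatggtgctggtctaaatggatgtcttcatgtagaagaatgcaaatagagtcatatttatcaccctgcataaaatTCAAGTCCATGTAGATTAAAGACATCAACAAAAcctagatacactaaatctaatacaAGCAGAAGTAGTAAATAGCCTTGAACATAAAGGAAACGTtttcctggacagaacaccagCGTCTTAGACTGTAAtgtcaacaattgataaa
Tlr4 / Brinp1 desert, chr4:67670286-67670555: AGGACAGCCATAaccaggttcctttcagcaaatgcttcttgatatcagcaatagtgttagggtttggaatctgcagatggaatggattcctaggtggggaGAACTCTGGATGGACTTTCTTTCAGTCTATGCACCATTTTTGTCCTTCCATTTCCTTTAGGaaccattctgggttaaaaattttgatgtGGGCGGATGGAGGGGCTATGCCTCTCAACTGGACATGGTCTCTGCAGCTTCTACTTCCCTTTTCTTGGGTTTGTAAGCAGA
Zeb2 / Acvr2a desert, chr2:47808882-47809147: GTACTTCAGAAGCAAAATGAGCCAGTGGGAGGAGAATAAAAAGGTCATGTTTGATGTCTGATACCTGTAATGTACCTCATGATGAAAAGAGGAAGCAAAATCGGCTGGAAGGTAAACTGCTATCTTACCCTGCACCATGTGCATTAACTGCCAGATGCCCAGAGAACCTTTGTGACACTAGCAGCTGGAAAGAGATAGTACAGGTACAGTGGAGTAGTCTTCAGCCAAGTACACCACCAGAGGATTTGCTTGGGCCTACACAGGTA
Cdh6 / Cdh9 desert, chr15:14632910-14633139: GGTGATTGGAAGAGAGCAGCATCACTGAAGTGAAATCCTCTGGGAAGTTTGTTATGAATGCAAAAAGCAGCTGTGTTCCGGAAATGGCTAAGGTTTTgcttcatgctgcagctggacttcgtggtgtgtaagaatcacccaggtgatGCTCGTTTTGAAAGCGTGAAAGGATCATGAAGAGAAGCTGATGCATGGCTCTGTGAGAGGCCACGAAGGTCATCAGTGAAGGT
The longest had 303 bp, and the others had 296, 270, 266 and 230 bp. Their GC content ran from 32.8% in the Stim2 / Pcdh7 region to 47.4% in the Cdh6 / Cdh9 region. They held between 1 and 5 CpG dinucleotides. The Zeb2 / Acvr2a region had 0 masked bases, whereas 179 of the 296 bases were masked in the Stim2 / Pcdh7 region. Of the 10 pairs among the 5, 1 pair shared a word of 12 bases on either strand, and the central 50 bases of each occurred at 1 place in the genome.

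The 5 members farthest from any start all lay in the Pcdh20 / Pcdh9 desert on chromosome 14, between 2661 and 2695 kb from the nearer of these protocadherin genes. Their sequences, with capitals as above, show members from the middle of the largest desert.
2695 kb, chr14:91190339-91190411: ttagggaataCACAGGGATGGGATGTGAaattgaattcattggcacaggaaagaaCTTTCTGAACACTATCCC
2686 kb, chr14:91157821-91157921: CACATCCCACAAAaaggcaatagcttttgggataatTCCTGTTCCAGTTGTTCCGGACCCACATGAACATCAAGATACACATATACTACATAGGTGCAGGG
2676 kb, chr14:91147583-91147683: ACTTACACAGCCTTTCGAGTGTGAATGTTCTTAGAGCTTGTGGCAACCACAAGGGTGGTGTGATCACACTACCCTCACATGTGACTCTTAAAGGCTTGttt
2665 kb, chr14:91220984-91221085: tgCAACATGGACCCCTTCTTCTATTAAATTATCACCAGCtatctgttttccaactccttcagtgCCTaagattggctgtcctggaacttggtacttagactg
2661 kb, chr14:91224842-91224914: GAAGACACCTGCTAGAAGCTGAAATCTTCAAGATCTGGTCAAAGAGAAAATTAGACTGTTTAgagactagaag
These had 73, 101, 101, 102 and 73 bp, with a GC content from 38.4% to 45.5% and at most 1 CpG. None of the 10 pairs among them shared a word of 12 bases.

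The longest chain of members with gaps of at most 10 kb, 6 regions within 12.8 kb, lay in the Adgrl3 / Tecrl desert on chromosome 5. Adgrl3 encodes an adhesion receptor of synapses. The 6 sequences are shown because neighbours could have been copies of each other.
Adgrl3 / Tecrl desert, chr5:82316951-82317023: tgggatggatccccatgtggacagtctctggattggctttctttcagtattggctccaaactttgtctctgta
Adgrl3 / Tecrl desert, chr5:82321463-82321587: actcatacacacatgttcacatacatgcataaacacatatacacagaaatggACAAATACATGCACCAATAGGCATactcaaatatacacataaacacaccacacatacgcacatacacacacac
Adgrl3 / Tecrl desert, chr5:82324085-82324157: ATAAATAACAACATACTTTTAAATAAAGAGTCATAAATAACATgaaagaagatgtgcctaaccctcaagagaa
Adgrl3 / Tecrl desert, chr5:82326513-82326585: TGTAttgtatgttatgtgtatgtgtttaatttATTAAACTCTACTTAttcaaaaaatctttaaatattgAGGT
Adgrl3 / Tecrl desert, chr5:82329422-82329494: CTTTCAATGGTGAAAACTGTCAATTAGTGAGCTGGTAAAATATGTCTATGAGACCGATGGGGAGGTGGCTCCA
Adgrl3 / Tecrl desert, chr5:82329726-82329798: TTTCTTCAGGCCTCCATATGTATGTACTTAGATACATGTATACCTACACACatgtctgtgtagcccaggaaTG
None of the 15 pairs shared a word of 12 bases. Their GC content ran from 20.5% to 46.6%. The region of 46.6% GC was masked throughout, and the region of 125 bp had 101 masked bases. The region of 43.8% GC had none.

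Members were short and of the same size as other regions of the list. Their median length was 73 bp, which is the minimum of the list, the upper quartile was 98 bp and the maximum was 303 bp. The minimum length was held by 2035 members, 55.7% (95% Wilson interval 54.0% to 57.3%), against 54.8% of nearer intergenic regions and 56.2% of regions in genes. Only 14 members had 200 bp or more. Together the members covered 322 kb, 0.148% of the desert DNA, against 0.138% of nearer intergenic DNA. Calls this short cannot show whether broad domains were present, and the density of regions is not the amount of H3K9me2.

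The sequence of members was richer in GC than the desert around it and poorer in repeats. Their GC content was 38.9%, where windows of 73 bp placed every 1 kb in desert DNA had 37.5%. In nearer intergenic DNA the same values were 42.1% and 41.7%. Masked repeats made up 26.3% of the bases of members and 42.2% of the desert windows, and 24.1% of the bases of nearer intergenic regions and 38.1% of their windows. By the centre base, members numbered 21.4 per Mb (20.6 to 22.2, exact Poisson 95% interval) of unmasked desert DNA and 10.6 per Mb (9.94 to 11.3) of masked desert DNA. GC content in the profile around members was 38.7% at the centre and 37.0% between 1000 and 2000 bp away, and the masked share was 26.6% at the centre and 35.5% at that distance.

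**Figure D1:**
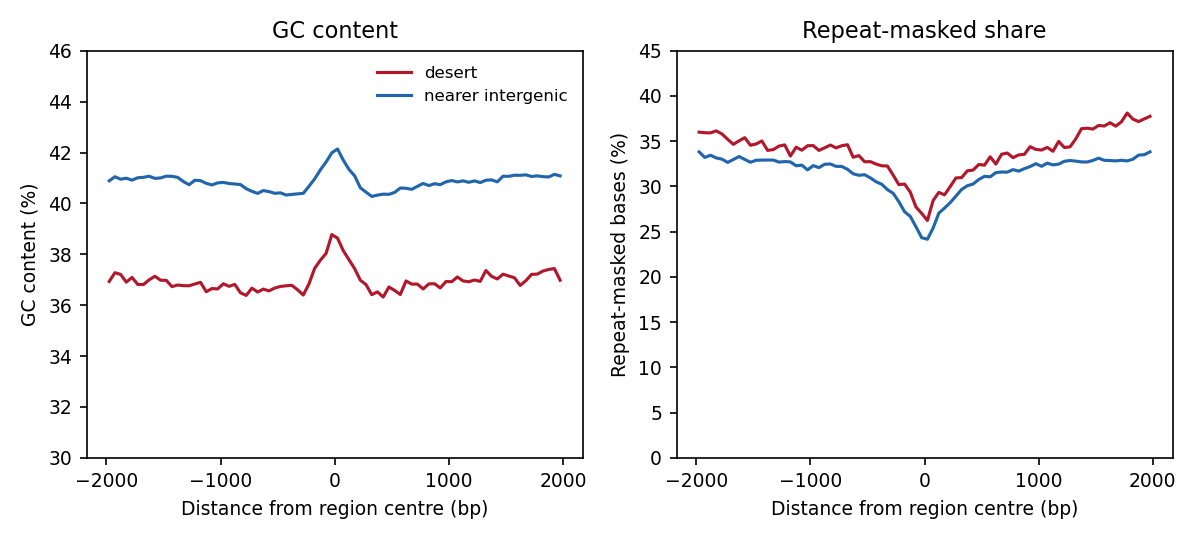
GC content (left, in %) and repeat-masked bases (right, in %) by distance from the region centre in bp, in bins of 50 bp, for 3656 desert regions (red) and 15904 nearer intergenic regions (blue). Both sets show a peak of GC content and a dip of the masked share at the centre, and the desert curve of GC lies lower throughout. The GC axis does not start at 0.

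Members lay almost wholly in sequence that occurs once in the genome. The central 50 bases of 3640 members (99.6%, 95% Wilson interval 99.3% to 99.7%) were found at 1 place on either strand of chromosomes 1 to 19, X and Y. Of the desert windows, 86.7% were found once and 9.59% at 10 places or more. Nearer intergenic regions (99.5% once) and their windows (86.4%) had like values. The 16 members with further copies were found at 2 to 38 places, the most being a fully masked member of 110 bp in the Ncam2 / Gm21833 desert. How reads with several positions were treated is unknown here, and their part in these shares was not tested.

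CpG dinucleotides and the CA, GA and TA repeats were rarer in members than in desert windows, and likewise in nearer intergenic regions. There were 4.28 CpG per kb in members and 4.97 per kb in desert windows, and 2566 members (70.2%) had none. Nearer intergenic regions had 6.45 per kb against 7.69 in their windows, and 60.1% of these regions had none. The share of windows without a CpG was not counted. Among the 2035 members of 73 bp, the CA repeat CACACACACA, sought on both strands, was in 8 (0.393%, 95% Wilson interval 0.199% to 0.774%), against 1.32% of desert windows of that length. The GA repeat GAGAGAGAGA was in 5 members against 0.717% of windows, and the TA repeat TATATATATA in 1 member against 0.508%. In nearer intergenic regions of 73 bp the CA repeat was in 0.505%, against 1.65% of their windows. There the GA repeat was in 0.287% against 0.828%, and the TA repeat in 0.0804% against 0.290%. The run AAAAAAAAAA was in 21 members (1.03%, 0.676% to 1.57%) against 1.38% of windows, whose value the interval holds. GGAAGGAAGGAA and TTAGGGTTAGGG, the letters of the telomere repeat, were in 0 of these members. They were in 0.127% and 0.00276% of the windows, and the interval of the members (0% to 0.188%) holds both. Members with a GC content under 20% made up 0.786% of the 73-bp members and 2.18% of the windows. Members of 60% or more made up 0.197% against 1.01%. In nearer intergenic DNA, 0.367% of the 73-bp regions and 1.00% of the windows were under 20%. There, 0.999% of the regions and 2.38% of the windows had 60% or more.

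H3K9me2 regions were slightly denser in gene deserts than in nearer intergenic DNA as counted, and not denser once GC content was taken into account. Desert DNA held 16.8 regions per Mb (16.3 to 17.4, exact Poisson 95% interval), and nearer intergenic DNA held 15.6 per Mb (15.4 to 15.9). Their ratio was 1.08 (1.04 to 1.12, exact binomial interval). Desert DNA is poorer in GC, and in both kinds of DNA the density was lower in classes of higher GC from 34% upwards. In 10-kb tiles of 34% to 36% GC, desert DNA held 19.2 regions per Mb (17.9 to 20.5) and nearer DNA 19.7 (18.3 to 21.1). In tiles of 36% to 38%, which made up 35.5% of the desert DNA, they held 17.4 (16.5 to 18.4) and 19.5 (18.7 to 20.3). In tiles of 38% to 40% they held 15.4 (14.3 to 16.4) and 17.4 (16.8 to 17.9). In tiles of 44% to 46%, with only 2.23 Mb of desert DNA, the values were 8.06 (4.78 to 12.7) and 13.9 (13.3 to 14.6).

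**Figure D2:**
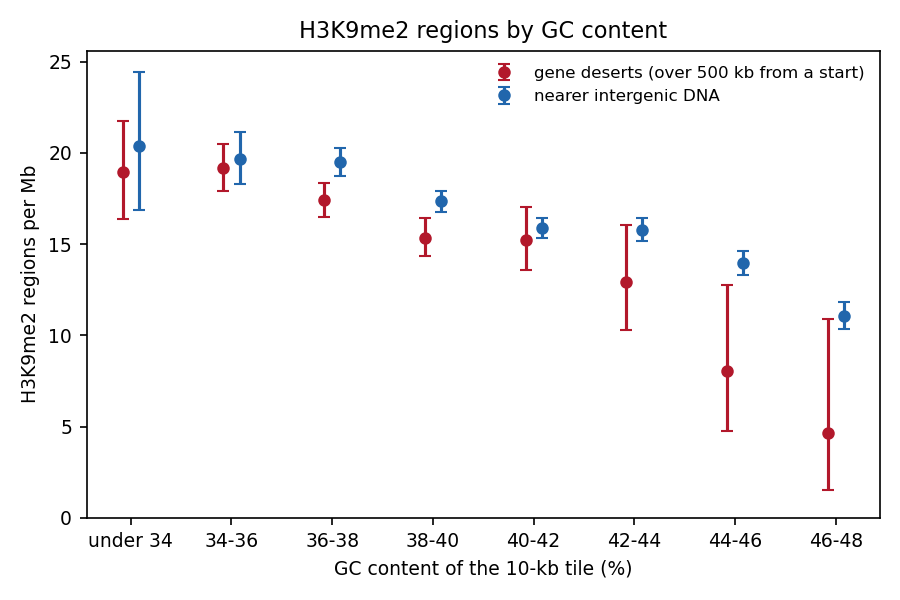
H3K9me2 regions per Mb by GC content of the 10-kb tile in %, in gene deserts (red) and in nearer intergenic DNA (blue), for the classes with 1 Mb or more of desert DNA. Bars are exact Poisson 95% intervals of the counts. Density falls with GC from 34% upwards in both. Desert values lie below nearer values in each class shown, with intervals apart at 36% to 38%, 38% to 40% and 44% to 46% and overlapping in the others.

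Summed over GC classes, 3656 regions were observed where the densities of nearer DNA of like GC gave 4017. The ratio was 0.910 (0.881 to 0.940, exact Poisson 95% interval). That interval takes the expected number as fixed, as do the other intervals of observed over expected below. With the counting error of both kinds of DNA it was 0.873 to 0.948. The size of this deficit depended on the scale at which GC was measured. With tiles of 1 kb the ratio was 0.992 (0.960 to 1.03) and with tiles of 100 kb it was 0.980 (0.948 to 1.01), both with intervals that hold 1. With classes of the masked share as well it was 0.944 (0.914 to 0.976), and with only sequence found once it was 0.919. The ratios by chromosome, by desert and by desert size below used 10-kb tiles and were not computed at other scales.

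Density was lowest near coding starts and differed little beyond 100 kb. It was 13.7 regions per Mb (13.4 to 14.1) within 50 kb of a start, 17.0 (16.5 to 17.6) from 100 to 250 kb and 17.8 (17.2 to 18.4) from 250 to 500 kb. In desert DNA it was 17.0 (16.4 to 17.7) from 500 to 1000 kb and 16.4 (15.4 to 17.3) beyond 1000 kb, with an interval that lies near that of 250 to 500 kb and overlaps it slightly. Against nearer intergenic DNA of like GC in 10-kb tiles, observed over expected was 0.946 (0.922 to 0.970) within 50 kb, 1.04 (1.01 to 1.08) from 100 to 250 kb, 0.931 (0.895 to 0.968) from 500 to 1000 kb and 0.867 (0.817 to 0.919) beyond 1000 kb. These ratios share the 10-kb scale of GC and were not computed at other scales.

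**Figure D3:**
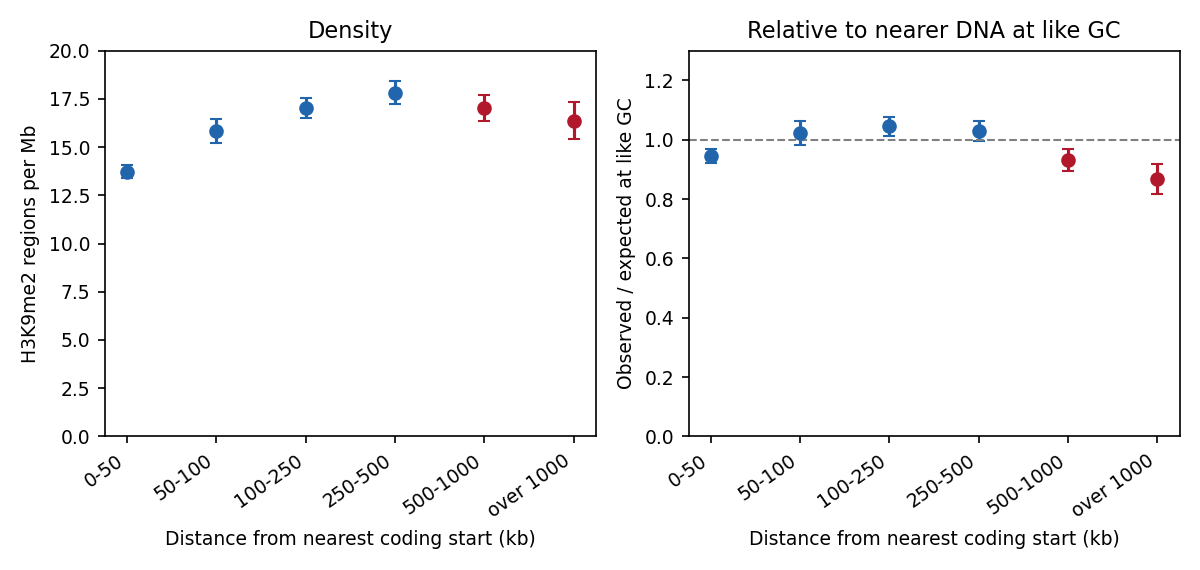
H3K9me2 regions per Mb (left) and observed over expected at like GC in 10-kb tiles (right) by distance from the nearest coding start in kb, in intergenic DNA. Blue points are nearer intergenic DNA and red points desert DNA. Bars are exact Poisson 95% intervals, and the dashed line marks 1. Density is lowest within 50 kb, at 13.7 per Mb, and the relative value is lowest beyond 1000 kb, at 0.867.

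Each of the 19 chromosomes had members, from 58 on chromosome 19 to 384 on chromosome 1. They were set against the nearer intergenic DNA of the same chromosome at like GC in 10-kb tiles. Of the chromosomes, 15 had a ratio under 1 and 4 a ratio over 1, with a median of 0.888. The interval lay wholly under 1 for 8 chromosomes and wholly over 1 for 1, chromosome 7. These intervals leave out the counting error of the nearer regions of the chromosome. The upper end was 0.991 on chromosome 4 and 0.982 on chromosome 1, so with that error fewer than 8 may lie wholly under 1. The lowest was chromosome 5, with 220 members against 290 expected, a ratio of 0.758 (0.661 to 0.865). Chromosome 7 had 127 members against 86.1 expected, a ratio of 1.47 (1.23 to 1.75). Against the nearer DNA of all chromosomes its deserts had a ratio of 1.11 (0.928 to 1.32), and its own nearer DNA had 0.824 of the number expected there. On chromosome 7, windows found once made up 76.6% of nearer intergenic DNA and 87.1% of desert DNA, and their part in the ratio was not tested. Without chromosome 7 the overall ratio was 0.894.

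Members showed little grouping in desert DNA, and the variance and neighbour shares below were higher in nearer intergenic DNA. Tiles were not scaled for the length of DNA they held, and the random values use 1 mean density for each kind of DNA. Neighbours could be any region of the list, also in genes or in the other kind of intergenic DNA, which the random values leave out. Density differed between GC classes in both kinds of DNA. The part of all these in the difference was not tested. Over 2204 tiles of 100 kb with at least 50 kb of desert DNA, the mean was 1.58 regions per tile and the variance was 1.06 times the mean. For nearer intergenic DNA the variance was 1.23 times the mean of 1.35. The fullest desert tile held 8 regions, and 475 tiles (21.6%) held 0. A neighbour within 10 kb was found for 1058 members, 28.9% (95% Wilson interval 27.5% to 30.4%). Points spread at random at the density of members alone would give 28.6%. Within 5 kb the share was 16.8% (15.6% to 18.1%) against 15.5%, a value just below the interval. In nearer intergenic DNA the shares were 30.7% (29.9% to 31.4%) against 26.8% within 10 kb and 18.4% against 14.5% within 5 kb. The distance to the nearest region of the list had a median of 20.4 kb for members and 20.1 kb for nearer intergenic regions. Chains of members with gaps of at most 10 kb numbered 388 of 2 regions and 71 of 3, and 2615 members stood alone.

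The deserts with most regions included the 4 largest, and 6 of the 10 bordered genes of the cadherin superfamily, whose products join neural cells to each other. Cadherin and protocadherin genes with a plain number were 7 of the 19 border genes of these deserts, against 19 of all 559. The 10 were picked by number of regions, which follows the size of the desert. The share at other deserts of like size was not counted. The 10 deserts with most regions held 553 members (15.1%) in 29.1 Mb (13.4% of desert DNA), against 550 expected at like GC, a ratio of 1.01. The desert with most lay between Celf4, which encodes an RNA-binding regulator of neuronal transcripts, and Pik3c3, which encodes a lipid kinase of autophagy (chromosome 18, 26254158 to 29772746). It held 73 regions in 3.22 Mb of desert DNA against 59.4 expected, a ratio of 1.23 (0.963 to 1.55). The desert between Olfm4, which encodes a secreted glycoprotein, and the protocadherin gene Pcdh17 (chromosome 14, 80500303 to 83943562) held 70 against 64.5 expected. Both ratios have intervals that hold 1.

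The next desert, between the contactin-associated gene Cntnap5b and the cadherin gene Cdh20 (chromosome 1, 100597762 to 104268528), held 61 regions against 62.3 expected. The desert between Pabpc4l, which encodes a relative of poly(A)-binding proteins, and Pcdh18 (chromosome 3, 46948220 to 49255463) held 55 in 2.26 Mb against 42.9 expected, a ratio of 1.28 (0.965 to 1.67). Sel1l, which encodes a part of the degradation machinery of the endoplasmic reticulum, and Flrt2, which encodes an adhesion and guidance protein, bordered a desert with 53 regions against 53.3 expected. The deserts on both sides of the cadherin gene Cdh8 on chromosome 8 were among the 10, with 50 regions towards Cdh11 (ratio 1.15, 0.855 to 1.52) and 45 towards Got2 (ratio 0.978, 0.713 to 1.31), which encodes a mitochondrial aminotransferase. The deserts between Nudt12 and the ephrin gene Efna5 and between the zinc transporter gene Slc39a10 and Tmeff2 held 48 regions each.

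The largest desert of all was not the fullest. The DNA between Pcdh20 and Pcdh9 (chromosome 14, 88971397 to 93385747) held 50 regions in 3.78 Mb, 13.2 per Mb (9.83 to 17.5), where 72.4 were expected, a ratio of 0.691 (0.513 to 0.910). Its widest gap between neighbouring members was 428 kb, against 202 kb in the Celf4 / Pik3c3 desert. Gaps were measured between members alone and can span annotated genes, which hold no members by the rule. Another 10 regions lay in annotated genes within the Pcdh20 / Pcdh9 desert and 7 in those within the Celf4 / Pik3c3 desert. These genes were not split into coding and noncoding, and the body of a coding gene can reach into a desert. Windows found once made up 88.7% and 89.9% of these deserts, close to the median of 88.2% over all deserts.

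**Figure D4:**
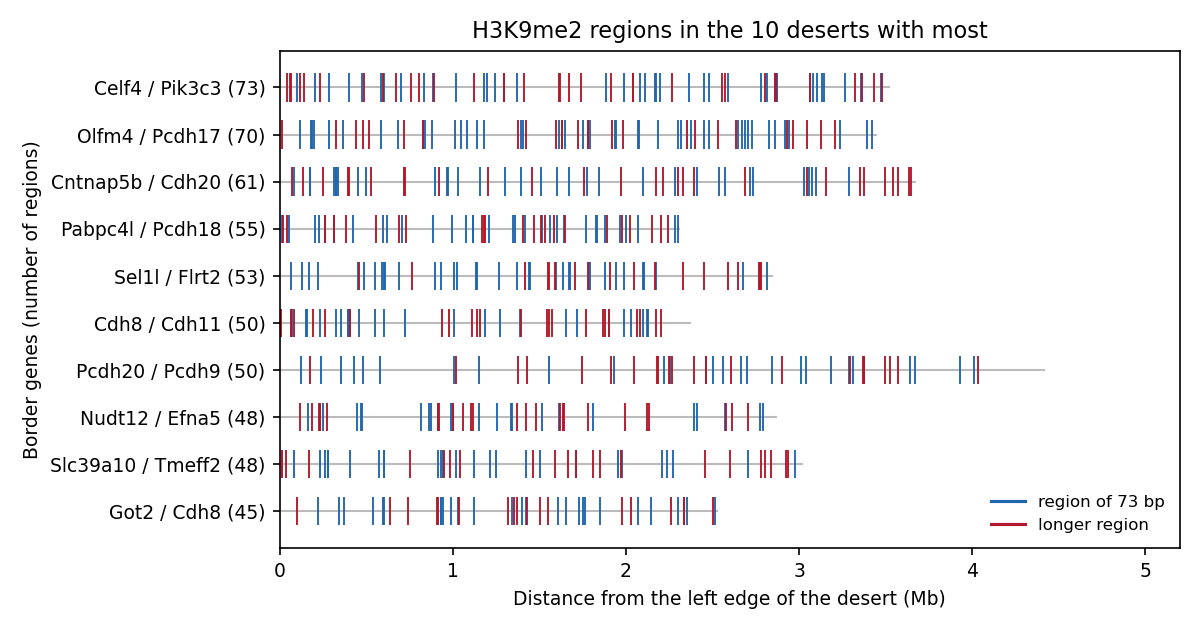
Positions of H3K9me2 regions in the 10 deserts with most, as distance from the left edge of the desert in Mb, named by their border genes with the number of regions in brackets. Grey lines give the length of the desert, blue ticks are regions of 73 bp and red ticks longer ones. Regions of both kinds run along the whole of each desert, and the widest gap between neighbouring members, 428 kb, is in the Pcdh20 / Pcdh9 desert. Regions in annotated genes are not drawn, so a gap can hold some.

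Among the 140 deserts with at least 500 kb of desert DNA, density ran from 0 to 29.2 regions per Mb, with a median of 16.2. The median ratio of observed to expected at like GC in 10-kb tiles was 0.871, and 101 of the 140 had a ratio under 1. How many would lie under 1 with GC measured at another scale was not tested. The interval lay wholly over 1 for 1 desert, 0.714% of the 140, and wholly under 1 for 10, 7.14%. The single desert above lay between Fam181b and the teneurin gene Tenm4 on chromosome 7 (93579866 to 95671245). It held 39 regions in 1.42 Mb, 27.5 per Mb (19.5 to 37.6), against 26.1 expected, a ratio of 1.49 (1.06 to 2.04). Another 19 regions lay in annotated genes within it, coding or noncoding. It held a group of 5 members within 9.52 kb, and its widest gap between members was 683 kb. Such a gap can span annotated genes and the regions in them. The intervals were not adjusted for the number of deserts compared. Of the 166 deserts with under 500 kb of desert DNA, 6 (3.61%) had an interval wholly over 1 and 2 (1.2%) wholly under 1.

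The other 4 of the 5 densest deserts of this size had less desert DNA, and each ratio had an interval that held 1. The desert between Hnf4g, which encodes a nuclear receptor, and the homeobox gene Zfhx4 held 17 regions in 0.582 Mb (29.2 per Mb, 17.0 to 46.8). That between the sorting receptor gene Sorcs1 and the insulin gene Ins1 also held 17, in 0.584 Mb (29.1 per Mb). Agbl1, which encodes a carboxypeptidase of tubulin, and Ntrk3, which encodes the receptor of neurotrophin-3, bordered a desert with 26 regions in 0.951 Mb (27.3 per Mb, ratio 1.53, 0.997 to 2.24). The transcription factor gene Ets1 and the adhesion gene Kirrel3 bordered one with 16 regions in 0.631 Mb (25.4 per Mb).

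Among deserts of at least 500 kb, the 2 with the lowest ratios were mostly repeated sequence. The desert between Ywhaq, which encodes an adaptor of phosphorylated proteins, and Gm10330 (chromosome 12, 21917638 to 23280264) held 0 regions in 1.13 Mb, where 15.2 were expected, and 3 counts would have been 2.65 per Mb. Only 14.8% of its windows were found once in the genome. The desert between the olfactory receptor gene Olfr1507 and Dad1, which encodes a subunit of the oligosaccharyltransferase, held 1 region in 0.699 Mb against 11.3 expected. It contained 78 segments of antigen receptor genes, and 37.3% of its windows were found once. The 7 deserts with under 50% of windows found once held 3 members in 2.52 Mb, and the part of repeated sequence in this was not tested. The other 3 of the 5 lowest had 87.1% to 91.2% of windows found once. They were the deserts between Tpm3-rs7 and the glypican gene Gpc5 (5 regions against 14.4 expected), between Rgs18, which encodes a regulator of G protein signalling, and Brinp3 (6 against 13.8), and between Tmem132b and Tmem132c (5 against 10.5, with an interval that held 1).

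**Figure D5:**
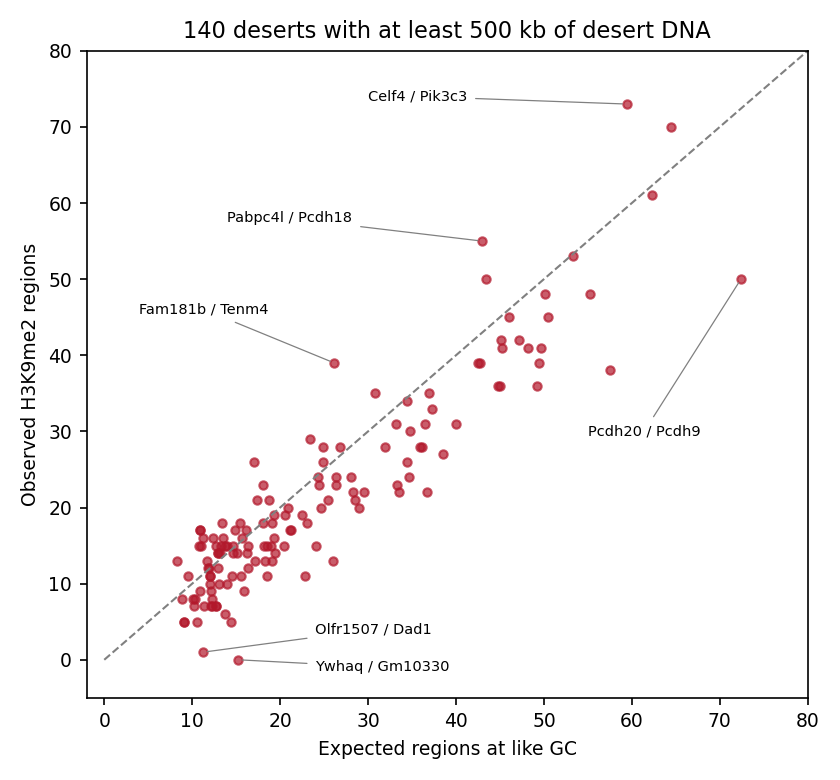
Observed H3K9me2 regions against the number expected from nearer intergenic DNA of like GC in 10-kb tiles, for the 140 deserts with at least 500 kb of desert DNA. Each point is 1 desert, and the dashed line marks equality. Of the points, 101 lie under the line, and the named points are 2 of the fullest deserts, the 2 with fewest regions, Fam181b / Tenm4 and Pcdh20 / Pcdh9.

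The border genes were rich in adhesion and guidance genes, which is a property of the annotation and not of the ChIP-seq. There were 559 border genes, of which 49 bordered more than 1 desert, and 277 (49.6%) were transcribed towards the desert, or towards the fuller one where they had several. Adhesion, guidance and synapse organiser genes made up 74 of the 559 (13.2%, 95% Wilson interval 10.7% to 16.3%), against 257 of 20757 autosomal coding genes (1.24%). Developmental transcription factor genes made up 34 (6.08%) against 1.66% of all. Ion channel and transmitter receptor genes made up 19 (3.40%) against 1.08%, and secreted growth factor genes 5 (0.894%) against 0.390%. Olfactory, vomeronasal and taste receptor genes were 2 (0.358%), against 7.32% of all. Of 33 autosomal genes named as cadherins or protocadherins with a plain number, 19 were border genes, 7 of them at the 10 deserts with most regions.

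No PHF2 peak was called in desert DNA, and many border genes had one at a promoter. In all, 0 PHF2 peaks were centred in or overlapped desert DNA, where 3 counts would be 0.0138 per Mb, and 461 were centred in nearer intergenic DNA (0.453 per Mb, 0.412 to 0.496). From 250 to 500 kb from a start there were only 2 peaks, 0.0103 per Mb, so at this number a fall at the desert limit was not detectable. Members lay at a median of 1173 kb from the nearest PHF2 peak, and the nearest pair was 195 kb apart.

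Of the 559 border genes, 230 (41.1%, 95% Wilson interval 37.1% to 45.3%) had a PHF2 peak within 1000 bp of a start, against 30.1% of all autosomal coding genes. Border genes had a median promoter CpG observed/expected of 0.573, against 0.487 at other genes, and other genes of like CpG would give 37.2%, a value just inside the interval. With the 5'-most start alone the shares were 36.1% of border genes and 28.1% of other genes. Among the 19 border genes of the 10 fullest deserts, 6 had a PHF2 peak. The authors' score of the peak, of unknown scale, was 1031 at Pcdh9, 774.5 at Cdh20, 772.5 at Pcdh18, 583.5 at Tmeff2, 402.1 at Slc39a10 and 201.5 at Flrt2. At the densest deserts of 500 kb or more it was 1521 at Fam181b, 1413 at Sorcs1, 604.1 at Kirrel3 and 563.9 at Ets1. Among adhesion and guidance genes, 34 of 74 border genes (45.9%) had a peak, against 30.4% of the whole list. Among developmental transcription factor genes it was 22 of 34 (64.7%), against 31.9%. The whole lists include their border genes, all border genes had 41.1%, and promoter CpG was not taken into account for the lists.

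The transcription factor genes at the borders with most regions included Zeb2, a transcriptional repressor that acts in neural crest and cortical development. Its desert held 36 regions, and its PHF2 score was 1183. Also among them were Gata3 (24 regions, no PHF2 peak), Nr2f1, a regulator of cortical areas (23, score 368.5), Mef2c (18, score 360.4) and Zfhx4 (17, no peak). The channel and receptor genes were the glutamate receptor gene Grik2 (42 regions, score 103.7), the potassium channel genes Kcnt2 (41, no peak), Kcnv1 (31, score 150.3), Kcnd2 (21, score 108) and Kcna4 (14, no peak), and the glutamate receptor gene Grm7 (14, no peak). Among secreted growth factor genes, Inhba bordered a desert with 6 regions, while those of Bmp2, Fgf12, Fgf9 and Gdf6 held 0. The 33 deserts without a region had only 3.20 Mb together, of which 1.13 Mb lay in the Ywhaq / Gm10330 desert. A count of 0 in such small deserts says little. Numbers of regions follow the size of the desert.

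H3K9me2 itself was at the promoter of few border genes. A region lay within 1000 bp of a start in 21 of 559 (3.76%, 95% Wilson interval 2.47% to 5.67%), against 2.38% of all autosomal coding genes and 2.00% of other genes of like promoter CpG. With the 5'-most start alone it was 12 (2.15%, 1.23% to 3.71%), against 1.46% of other genes. Among the border genes named above, Pcdh20, Hnf4g, Gata3, Grik2 and Tmem132c had such a region. The remaining 18 border genes of the 10 fullest deserts had none.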

How the data were processed

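H3K9me2 and PHF2 had been mapped by ChIP-seq, and the data were 1 peak list for each. Both inputs were not analysed here. Bowtie2 and the mm10 genome are listed in the submitters' processing notes. MACS in Galaxy made the PHF2 list, per the file headers, and each of its peaks has a score by the authors, used only as a description. For the H3K9me2 list the caller is not given in the sources used here, only its file name mentions a p threshold, and its deposited score is 0 throughout.

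Coordinates are on mm10, 1-based. The reference was GRCm38.p6, the same assembly, with GENCODE M21. Expected numbers came from the density of nearer intergenic DNA in the same GC class of 10-kb tiles (steps of 2 percentage points, ends pooled below 34% and from 50%). Sequence features were set against windows of 73 bp every 1 kb. The calculation of the ratio was checked on counts simulated from the same GC classes, which cannot bear on the choice of tile size. Intervals were Poisson, binomial or Wilson at 95%. Tools were Python 3.11.15, SciPy 1.17.1, numpy 2.4.6 and pandas 2.3.3.

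Border genes were named for the 10 deserts with most regions, the 5 densest and the 5 with the lowest ratio among deserts of at least 500 kb, and for up to 6 genes of each of 5 lists. Of these, 1 gene that this rule names is not reported here. The members, lists and rules were chosen with earlier results of these data known. Alternatives changed the distance, the starts, the genes left out, the tiles, the classes, the regions kept and the promoter windows.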

Additional observations from a re-analysis of the deposited data

How the results depend on the processing

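The ratio of desert to nearer density at like GC was 0.910. It was under 1 in 37 of 38 alternatives and inside the interval given with it in 31, among them all 19 that left out a chromosome (0.894 to 0.922). Those 19 reuse most of the same counts and are not independent of it. Of the 19 other alternatives, 18 were under 1. Without GC classes the ratio was 1.08. It was 0.992 with tiles of 1 kb, 0.980 with tiles of 100 kb and 0.944 with classes of the masked share. For DNA over 250 kb from a start it was 0.987 (0.964 to 1.01), and with neighbours within 10 kb counted once 0.944. With the starts of all annotated genes, which left 13 members, it was 0.994 (0.529 to 1.70). The intervals for tiles of 1 kb and 100 kb, over 250 kb and all gene starts hold 1. It was 0.901 with GC classes within each chromosome and 0.918 without deserts of mostly repeated sequence. Both, and the share at like CpG, were chosen after seeing the data. Nearer DNA from 100 to 500 kb held 17.4 regions per Mb. A neighbour within 5 kb was found for 16.8% of members and within 20 kb for 49.5%. Of the central 50 bases of members, 26.6% were masked. Border genes with a PHF2 peak were 36.1% with the 5'-most start. Among deserts of 500 kb or more, ranked by density the first held 17 regions, and ranked by the ratio the first held 13. The cause was not tested for any of these. No paired analysis was possible because each target had 1 sample. Unknown depth limits what an uncalled stretch shows.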

Other observations

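Besides the deserts named above, 5 with at least 500 kb of desert DNA had intervals of observed over expected wholly under 1. They were listed after their values were seen. The desert between the protocadherin gene Pcdh7 and G6pd2 held 38 regions against 57.5 expected. The deserts between Cox7c, which encodes a subunit of cytochrome c oxidase, and Edil3 and between Otol1 and Sis, which encodes the intestinal sucrase-isomaltase, held 22 each, against 33.6 and 36.7 expected. The desert between Serpinb8 and the cadherin gene Cdh7 held 13 against 26.0, with an H3K9me2 region at the Cdh7 promoter, and that between Lingo2, which encodes an adhesion receptor of neurons, and 1700009N14Rik held 11 against 22.8. In the other direction, 6 deserts with under 500 kb had intervals wholly over 1, also listed after their values were seen. The desert between the kinase gene Pkn2 and Lmo4, which encodes a transcriptional cofactor, held 12 regions in 0.245 Mb against 4.14 expected, a ratio of 2.90 (1.50 to 5.06). The deserts Bckdhb / Gm11114 and Wac / Fzd8 also held 12 regions each, with ratios of 2.22 and 2.34. Fbxo15 / Neto1 held 15 (ratio 1.94), Camk1g / Plxna2 held 9 (2.21) and Sox11 / Dcdc2c held 7 (2.84).

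Deserts with under 500 kb of desert DNA numbered 166 and held 612 members, 18.6 per Mb (17.1 to 20.1, exact Poisson 95% interval), a ratio to the expected number at like GC of 1.06 (0.980 to 1.15). The 46 deserts of 1 to 2 Mb held 15.7 per Mb (14.7 to 16.6), a ratio of 0.838 (0.788 to 0.891). The 26 larger ones held 17.1 per Mb (16.1 to 18.1), a ratio of 0.904 (0.852 to 0.957). These ratios rest on GC in 10-kb tiles alone.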
